A study of Mus musculus with 63 samples.

Results

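miR-210 is a microRNA made from a single hairpin, and the count table lists both of its mature strands, mmu-miR-210-3p and mmu-miR-210-5p, written miR-210-3p and miR-210-5p below. They were taken by name, and they are 2 of the 1966 mature names and 2 of the 2110 loci in the table, each with 1 locus. Their small RNA reads were counted in 4 cell populations sorted from mouse kidney, which gave 63 libraries from 16 mice. All mice were male C57BL/6, 8 to 12 weeks old, and had a sham operation (sham), a ureter tied for 2 days (UUO-2), a ureter tied for 7 days (UUO-7), or 7 days of obstruction followed by reimplantation of the ureter into the bladder and 14 days of reversal (R-UUO). UUO stands for unilateral ureteric obstruction, in which urine backs up into 1 kidney and the tubules are injured. The populations were endothelial cells (ECs, CD45-CD31+), macrophages (Macs, CD45+ with high F4/80), proximal tubular cells (PT cells, CD45-CD31- and positive for the lectin LTL) and CD45-CD31- cells positive for PDGFR-β, a receptor of pericytes and fibroblasts. Each group held 4 mice, chosen by the study for kidney Havcr1 levels near their group's mean, except PDGFR-β+ cells at UUO-7, where 3 libraries remained after the study set 1 aside.

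The hairpin of miR-210 is a well-known target of the hypoxia-inducible factors, which switch genes on when cells lack oxygen. The 3p strand is the one usually loaded into the silencing complex. Known targets of miR-210 include Iscu, which helps to build iron-sulfur clusters for mitochondrial enzymes, and the ephrin gene Efna3. The kidney works at low oxygen tension, and its proximal tubule depends on mitochondrial respiration.

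Both mature strands are shown because each has its own seed, bases 2 to 8, which are in capitals and pair with target mRNAs. The sequences are those of RefSeq on GRCm38.p6, written 5′ to 3′.
miR-210-3p: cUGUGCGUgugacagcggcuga
miR-210-5p: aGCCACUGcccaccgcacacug
Each is 22 bases long, with a GC content of 63.6% for miR-210-3p and 68.2% for miR-210-5p. The lowest-energy pairing of the strands that RNAduplex found holds 16 base pairs. Among the 1679 mature names of the RefSeq table, 0 others carry the seed of miR-210-3p and 0 others that of miR-210-5p, so that neither belongs to a larger seed family there.

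The hairpin gene Mir210 lies on the minus strand at chr7:141221384-141221493 (GRCm38, GENCODE annotation). The 3p strand covers chr7:141221407-141221428 and the 5p strand chr7:141221445-141221466. The hairpin is intergenic, with 0 overlapping genes, 2725 bases from the end of Rassf7 and 7290 bases from the start of Phrf1. The nearest other miRNA loci within 1 Mb are the strands of miR-7063, with 99 (5p) and 63 (3p) counts over all libraries, and those of miR-3104, with 0 counts each.

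Values below are raw counts scaled to a library total of 1000000 (CPM) with edgeR's TMM factors, within 1 cell type for changes between conditions and over all 63 libraries for levels between cell types. A change was called when edgeR's quasi-likelihood test gave a Benjamini-Hochberg adjusted p under 0.05 and the fold change exceeded 1.5. The SE printed with a log2 fold change of edgeR is its absolute value divided by the square root of the test's F statistic. It was derived from the test and not estimated by the fit, and it is unreliable where the change is very small. The libraries held 616565 to 10819385 counts, and PT cells were the shallowest. miR-210 is a rare miRNA here, with 5519 counts of the 3p strand and 2270 of the 5p strand, together 29.6 CPM of all counts. Both strands passed the filter on low counts in every cell type, taken over the libraries of all conditions. In PT cells neither strand would have passed on its sham libraries alone, with 3 to 12 counts of the 3p and 0 to 8 of the 5p strand there. Both needed libraries of other conditions, where they were higher, to enter the tests against sham. For the summed level of its own markers each population was highest. The EC markers miR-126a-3p and miR-126a-5p summed to 93098.5 to 173192 CPM in ECs and at most 3524 elsewhere. The Mac markers summed to 14705 to 41968 in Macs and at most 698 elsewhere. The PT markers summed to 20559.9 to 133365 in PT cells and at most 5422 elsewhere. The PDGFR-β+ markers summed to 88377 to 400046 in PDGFR-β+ cells and at most 45979 elsewhere. By medians in its own cells each sum was mostly a single member: miR-126a-5p, miR-142a-5p, miR-192-5p and miR-143-3p. Taken singly, miR-145a-5p overlapped, at 407 to 2991 CPM in PDGFR-β+ cells and up to 759 in PT cells. Within a sorted population, fewer cells with miR-210 and less miR-210 per cell cannot be told apart. No molecular identifiers are named for these libraries, so intervals and floors cover counting error only.

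Obstruction was accompanied by higher miR-210 in PT cells, for both strands and at both times. miR-210-3p measured 12.9, 8.95, 7.22 and 3.36 CPM in the 4 sham libraries of PT cells. At UUO-2 it measured 8.87, 36.3, 31.8 and 23.9 CPM, and at UUO-7 26.0, 47.1, 68.2 and 44.5 CPM. All UUO-7 libraries lay above all sham libraries, whereas 1 UUO-2 library lay within the sham range. The mean of miR-210-3p was 8.12 ± 3.98 CPM (SD, n = 4) in sham, 25.2 ± 12.1 at UUO-2 and 46.4 ± 17.3 at UUO-7. Its log2 fold change against sham was 1.64 ± 0.51 (SE) at UUO-2 (edgeR adjusted p = 0.0325) and 2.51 ± 0.51 at UUO-7 (edgeR adjusted p = 0.000864). The UUO-2 call was lost without UUO-2 replicate 2, 3 or 4 or sham replicate 2, 3 or 4, with log2 values from 1.39 to 1.97 over all single libraries left out, while the UUO-7 call held each time.

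The 5p strand in PT cells was rarer in sham and rose as well. It measured 2.16, 0, 7.22 and 0 CPM in sham, where the 4 libraries held 2, 0, 8 and 0 counts and 3 counts correspond to 3.04 to 4.82 CPM. It measured 15.8, 19.1, 11.7 and 9.94 CPM at UUO-2 and 20.6, 22.4, 31.7 and 20.6 CPM at UUO-7. Each UUO-2 library was above every sham library, and each UUO-7 library was above every UUO-2 library. The log2 fold change of miR-210-5p against sham was 2.40 ± 0.65 at UUO-2 (edgeR adjusted p = 0.0156) and 3.17 ± 0.62 at UUO-7 (edgeR adjusted p = 0.000741). In a fit of only UUO-2 and sham the 5p strand did not pass the filter on low counts and was not tested. Both strands were thus called at both times, where 19.1% of all 330 loci tested in PT cells were called at UUO-2 and 43% at UUO-7. Groups without overlap, as miR-210-5p showed at both times and miR-210-3p at UUO-7, were found for 35.8% and 51.5% of loci, so that neither a call nor separate groups were rare at UUO-7. Without sham replicate 3, the sham library with 8 counts, the values of miR-210-5p were 4.08 at UUO-2 and 4.81 at UUO-7 (edgeR adjusted p = 0.00304 and 0.000231). From UUO-2 to UUO-7 the log2 differences of 0.87 ± 0.45 for the 3p strand and 0.77 ± 0.50 for the 5p strand were not called (edgeR adjusted p = 0.271 and 0.385), where 4.24% of loci were called and 23.6% had groups without overlap.

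After reversal the miR-210 values of PT cells lay below those of UUO-7, but the differences missed the threshold. miR-210-3p measured 24.8, 11.0, 6.52 and 22.2 CPM in R-UUO, with all 4 libraries below all UUO-7 libraries. The 5p strand measured 7.51, 3.44, 3.26 and 9.65 CPM, again below every UUO-7 library. Groups without overlap were found for 6.97% of loci in this comparison, and 1.52% of loci were called. The log2 fold change of R-UUO against UUO-7 was -1.49 ± 0.46 for miR-210-3p (edgeR adjusted p = 0.0851) and -1.96 ± 0.55 for miR-210-5p (edgeR adjusted p = 0.0611). DESeq2 called both, at -1.48 (adjusted p = 0.0314) and -1.97 (adjusted p = 0.00156), and without R-UUO replicate 5 edgeR called miR-210-5p, at -2.26 (edgeR adjusted p = 0.0490). Against sham, R-UUO libraries overlapped for both strands, with log2 values of 1.02 ± 0.53 and 1.21 ± 0.70 (edgeR adjusted p = 0.121 and 0.168), where 38.8% of loci were called and 36.4% had groups without overlap. Without sham replicate 3 the difference of miR-210-5p was 2.84 and was called (edgeR adjusted p = 0.0154).

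Depth and other markers moved with these changes in PT cells. The sham libraries held 622689 to 987306 counts and the UUO-7 libraries 1665115 to 5093294. The summed level of all 3 PT markers (miR-192-5p, miR-194-5p and miR-200b-3p) was 103313 to 133365 CPM in sham, 37407 to 57979.5 at UUO-7 and 20559.9 to 69586 in R-UUO. In PT cells over all conditions miR-192-5p had a median of 57045 CPM, against 63536 for the PT sum, so the fall is not shown for each PT marker. In the same cells the 3 Mac markers (miR-142a-3p, miR-142a-5p and miR-223-3p) summed to 73.2 to 106 CPM in sham and 136 to 236 at UUO-7, against 17978 to 21212 in Macs at UUO-7. The 4 PDGFR-β+ markers (miR-143-3p, miR-145a-5p, miR-199a-3p and miR-214-3p) summed to 1608 to 3485 CPM in sham PT cells and 7012 to 18199 at UUO-7, against 142389 to 170827 in PDGFR-β+ cells at UUO-7. Most of this sum was miR-143-3p in every cell type. In PT cells over all conditions its median was 6627 CPM, against 6835 for the sum. The part of depth and of other cells in the miR-210 change was not tested.

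**Figure D1:**
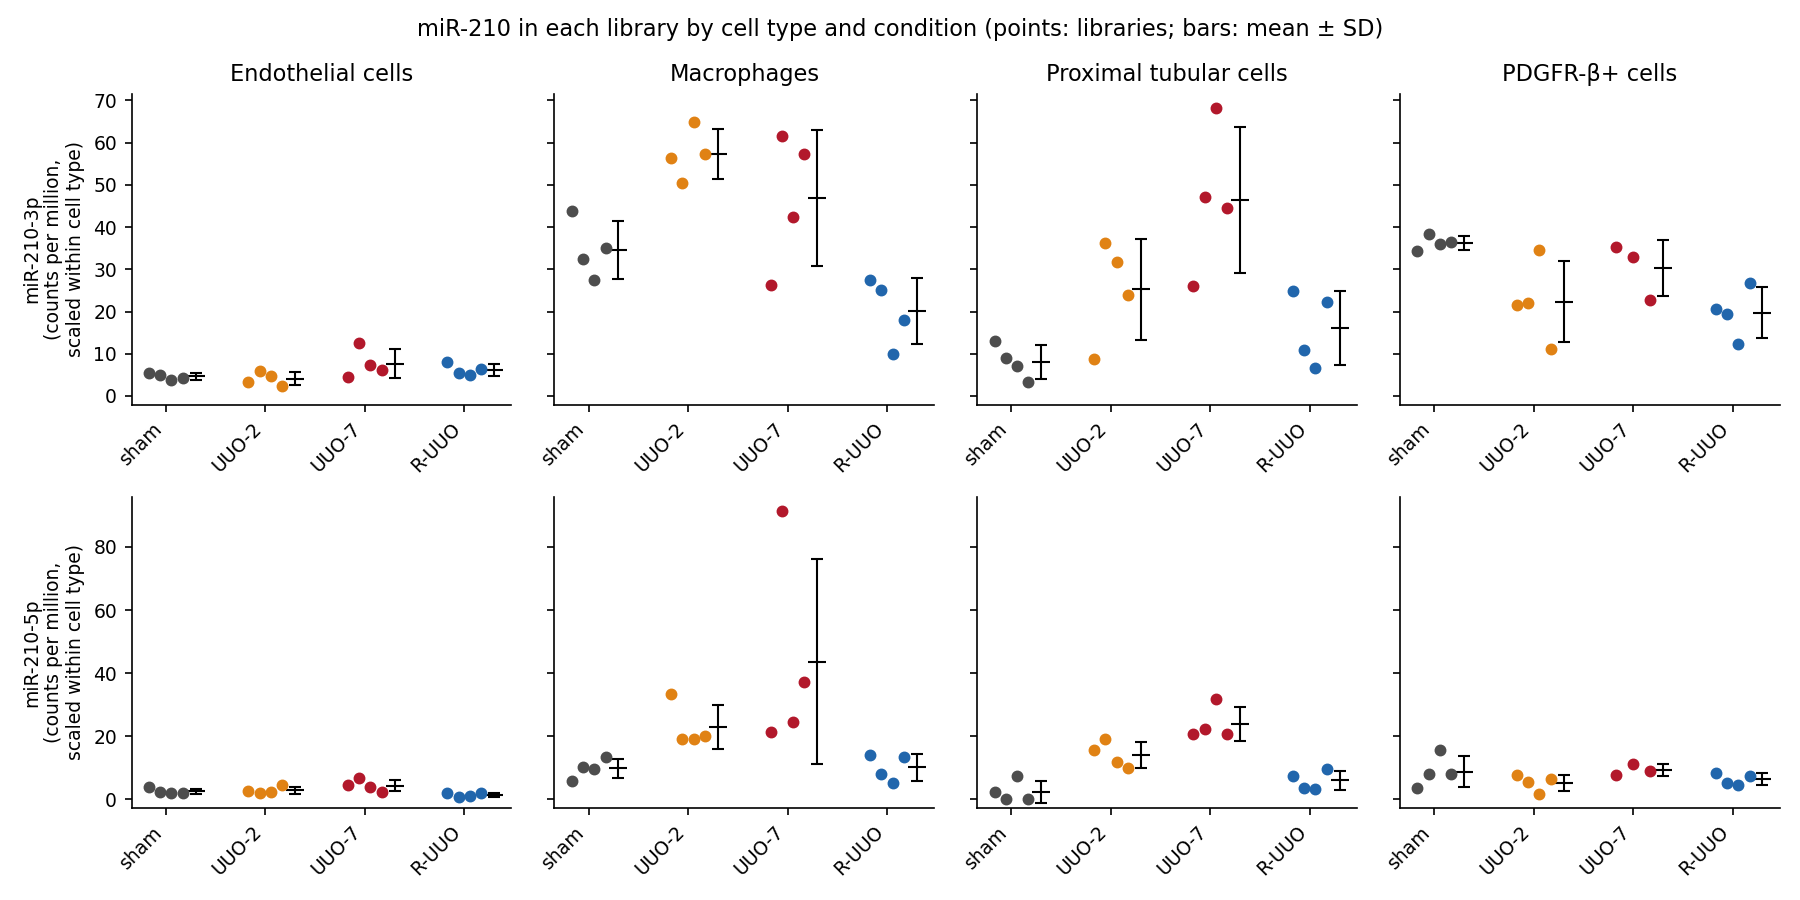
CPM of miR-210-3p (upper panels) and miR-210-5p (lower panels), scaled within each cell type, for every library (points) by condition, with the mean and SD of each group beside them. In PT cells all UUO-7 points of both strands sit above the sham points, and in Macs a single UUO-7 library reaches 91.4 CPM of miR-210-5p.

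In Macs the 5p strand rose with obstruction, the 3p strand was not called against sham at either time of obstruction, and both strands fell after reversal. The difference between the strands themselves was tested on their ratio below. It did not pass between any conditions compared in Macs, in a design where it hardly could after adjustment. miR-210-5p measured 5.92, 10.3, 9.50 and 13.5 CPM in sham. At UUO-2 it measured 33.3, 19.2, 19.2 and 20.1 CPM, and at UUO-7 21.4, 91.4, 24.6 and 37.2 CPM. Every library of both obstructed groups exceeded every sham library. The log2 fold change of miR-210-5p against sham was 1.24 ± 0.43 at UUO-2 (edgeR adjusted p = 0.0350) and 2.18 ± 0.44 at UUO-7 (edgeR adjusted p = 0.000454). In Macs 27.6% of 457 loci were called at UUO-2 and 43.1% at UUO-7, and 39.6% and 47.3% had groups without overlap. The UUO-2 call was lost when any 1 of 7 of the 8 libraries was left out (all but sham replicate 4), with values from 0.84 to 1.32. UUO-7 replicate 3 held 319 counts of the 5p strand, the most in any library, and without it the UUO-7 value was 1.35 (edgeR adjusted p = 0.00495).

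miR-210-3p in Macs was already abundant in sham, at 43.8, 32.3, 27.4 and 35.0 CPM. It measured 56.4, 50.5, 64.9 and 57.4 CPM at UUO-2, all above sham, and 26.3, 61.6, 42.3 and 57.4 CPM at UUO-7, where the groups overlapped. Neither difference from sham was called, with log2 values of 0.72 ± 0.28 at UUO-2 (edgeR adjusted p = 0.0571) and 0.44 ± 0.28 at UUO-7 (edgeR adjusted p = 0.203). With library size as the only scaling, the UUO-2 difference was 0.87 and was called (edgeR adjusted p = 0.0298), and in a fit of only UUO-2 and sham it was 0.68 and was called (edgeR adjusted p = 0.00697). Between UUO-2 and UUO-7 neither strand was called, with -0.28 ± 0.28 for miR-210-3p and 0.94 ± 0.41 for miR-210-5p (edgeR adjusted p = 0.458 and 0.0862), where 30.6% of loci were called and 41.8% had groups without overlap. The latter value was 0.24 without UUO-7 replicate 3, and it was called without UUO-7 replicate 2 or 4, at 1.19 and 1.18 (edgeR adjusted p = 0.0342 and 0.0417).

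In R-UUO the 3p strand of Macs measured 27.3, 25.1, 9.89 and 18.1 CPM, and the 5p strand 14.0, 8.05, 5.16 and 13.3 CPM. The R-UUO libraries of miR-210-5p all lay below UUO-7, and those of miR-210-3p overlapped with UUO-7 through UUO-7 replicate 2. Against UUO-7 the log2 fold change was -1.21 ± 0.29 for miR-210-3p (edgeR adjusted p = 0.00636) and -2.16 ± 0.45 for miR-210-5p (edgeR adjusted p = 0.00213). Both were called, where 19.9% of loci were and 23.2% had groups without overlap, and both stayed called without any single library. For the 5p strand the value without UUO-7 replicate 3 was -1.49 (edgeR adjusted p = 0.0103). Against sham, miR-210-3p was lower by a log2 fold change of -0.77 ± 0.29 in R-UUO (edgeR adjusted p = 0.0463), with every R-UUO library below every sham library, and 31.9% of loci were called and 32.8% had groups without overlap. This call was lost without R-UUO replicate 4 or sham replicate 1, with values from -1.07 to -0.68. miR-210-5p in R-UUO overlapped with sham, at 0.02 ± 0.46 (edgeR adjusted p = 0.979).

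Other markers moved in Macs too. The 3 Mac markers, mostly miR-142a-5p, summed to 34894 to 41968 CPM in sham, 17978 to 21212 at UUO-7 and 14705 to 27648 in R-UUO. The 4 PDGFR-β+ markers, mostly miR-143-3p, summed to 1979 to 4975 CPM in sham Macs, 3106 to 4573 at UUO-7 and 6648 to 9435 in R-UUO. The part of these shifts in the miR-210 values was not tested.

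In PDGFR-β+ cells miR-210-3p was high in sham, was not called at either time of obstruction and was lower after reversal. It measured 34.2, 38.3, 36.0 and 36.4 CPM in sham, a mean of 36.2 ± 1.68 (SD, n = 4), the narrowest spread relative to its mean among the 16 groups. At UUO-2 it measured 21.5, 22.1, 34.7 and 11.1 CPM, and in the 3 UUO-7 libraries 35.3, 32.8 and 22.8 CPM. In R-UUO it measured 20.7, 19.3, 12.3 and 26.8 CPM, all below sham. The log2 fold change against sham was -0.69 ± 0.31 at UUO-2 (edgeR adjusted p = 0.186), -0.25 ± 0.33 at UUO-7 (edgeR adjusted p = 0.541) and -0.88 ± 0.31 for R-UUO (edgeR adjusted p = 0.0305). The last was the only call, where 41.7% of loci were called and 38.8% had groups without overlap, and 6.29% were called at UUO-2 (13.6% without overlap) and 48.2% at UUO-7 (58.1% without overlap). It was lost without R-UUO replicate 2 or 4 or sham replicate 2 or 4, with values from -1.06 to -0.77, and with library size as the only scaling (-0.59, edgeR adjusted p = 0.144). The UUO-2 difference was called by DESeq2, at -0.79 (adjusted p = 0.0440), and by edgeR without UUO-2 replicate 3, at -1.0 (edgeR adjusted p = 0.0475).

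The 5p strand in PDGFR-β+ cells measured 3.51, 7.95, 15.7 and 8.05 CPM in sham and 7.54, 5.57, 1.58 and 6.30 at UUO-2. It measured 7.69, 11.2 and 8.88 CPM at UUO-7 and 8.44, 5.05, 4.64 and 7.50 in R-UUO. All groups overlapped with sham, and the log2 values against sham were -0.74 ± 0.49, 0.09 ± 0.51 and -0.44 ± 0.48 (edgeR adjusted p = 0.378, 0.893 and 0.468). From UUO-7 to R-UUO neither strand was called, with -0.62 ± 0.33 for miR-210-3p and -0.54 ± 0.51 for miR-210-5p (edgeR adjusted p = 0.332 and 0.624), where 3.98% of loci were called and 17.8% had groups without overlap. From UUO-2 to UUO-7 the values were 0.43 ± 0.33 and 0.84 ± 0.52 (edgeR adjusted p = 0.321 and 0.224), where 33.8% of loci were called. The 5p groups did not overlap in that comparison, as for 50.1% of loci. With library size as the only scaling both strands were called there, at 0.95 and 1.40 (edgeR adjusted p = 0.0365 and 0.0443).

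The median of all loci itself moved in PDGFR-β+ cells, and so did the effect of scaling. At UUO-7 against sham the median log2 fold change of the 477 loci was 0.50 with TMM and 1.02 with library size only. Relative to either median, miR-210-3p was lower at UUO-7, with values of -0.25 and 0.25. The 4 PDGFR-β+ markers summed to 325899 to 397772 CPM in sham, 142389 to 170827 at UUO-7 and 88377 to 155896 in R-UUO, and their part in the miR-210 values was not tested. Most of this sum was miR-143-3p, with a median of 197468 CPM in these cells, so its fall is not shown for each marker. The medians of miR-145a-5p, miR-199a-3p and miR-214-3p were 912, 5822 and 133 CPM. For late injury the study reported less miR-143 and miR-145 but more miR-199 and miR-214 in these cells. In PT cells at UUO-7 the median was 0.00 with TMM and -0.36 with library size only, and in Macs 0.22 and 0.36.

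ECs had the lowest miR-210 on average over the conditions, and edgeR called 0 of its 10 changes, with 3 at an unadjusted p under 0.05 and 1 called by DESeq2 among the 8 for which it gave an adjusted p. miR-210-3p measured 5.49, 5.04, 3.72 and 4.26 CPM in sham and 3.39, 5.95, 4.77 and 2.42 at UUO-2. It measured 4.58, 12.4, 7.40 and 6.08 CPM at UUO-7 and 7.97, 5.42, 4.91 and 6.46 in R-UUO. Each of these groups overlapped with sham, and the highest value came from UUO-7 replicate 3. The log2 fold change of miR-210-3p against sham was -0.12 ± 0.33 at UUO-2 (edgeR adjusted p = 0.928), where 1.71% of 469 loci were called and 12.4% had groups without overlap. It was 0.71 ± 0.31 at UUO-7 (edgeR adjusted p = 0.129), where 11.5% were called and 24.7% without overlap, and 0.44 ± 0.31 for R-UUO (edgeR adjusted p = 0.341), where 16.8% were called and 26.2% without overlap. From UUO-2 to UUO-7 miR-210-3p differed by 0.84 ± 0.33 and miR-210-5p by 0.61 ± 0.42 (edgeR adjusted p = 0.294 and 0.595), where 1.92% were called and 7.25% without overlap. From UUO-7 to R-UUO the 3p value was -0.28 ± 0.31 (edgeR adjusted p = 0.613), and it was 0.032 without UUO-7 replicate 3.

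The 5p strand of ECs measured 3.73, 2.42, 1.90 and 2.13 CPM in sham, 2.77, 1.91, 2.38 and 4.50 at UUO-2, and 4.58, 6.61, 3.83 and 2.34 at UUO-7. In R-UUO it measured 2.05, 0.665, 1.13 and 1.97 CPM from 3 to 18 counts, all below UUO-7. The log2 fold change of R-UUO against UUO-7 was -1.52 ± 0.42 (edgeR adjusted p = 0.0737), where 1.07% of loci were called and 11.7% had groups without overlap. It was called by DESeq2 (-1.58, adjusted p = 0.0195), without the filter on low counts (-1.54, edgeR adjusted p = 0.0334) with library size as the only scaling (-1.67, edgeR adjusted p = 0.0422) and without UUO-7 replicate 5 (-1.75, edgeR adjusted p = 0.0379). Against sham the values were 0.14 ± 0.42 at UUO-2, 0.75 ± 0.39 at UUO-7 and -0.77 ± 0.42 for R-UUO (edgeR adjusted p = 0.929, 0.221 and 0.209). The 4 PDGFR-β+ markers, mostly miR-143-3p, summed to 8148 to 17363 CPM in ECs at UUO-7 and 7636 to 45979 in R-UUO, and their part was not tested. Taking the 4 cell types, 5 comparisons and both strands, 10 of the 40 changes of miR-210 were called. In the same comparisons the share of all loci called ran from 1.07% (R-UUO against UUO-7 in ECs) to 48.2% (UUO-7 against sham in PDGFR-β+ cells). The count is therefore not by itself a result about miR-210.

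**Figure D2:**
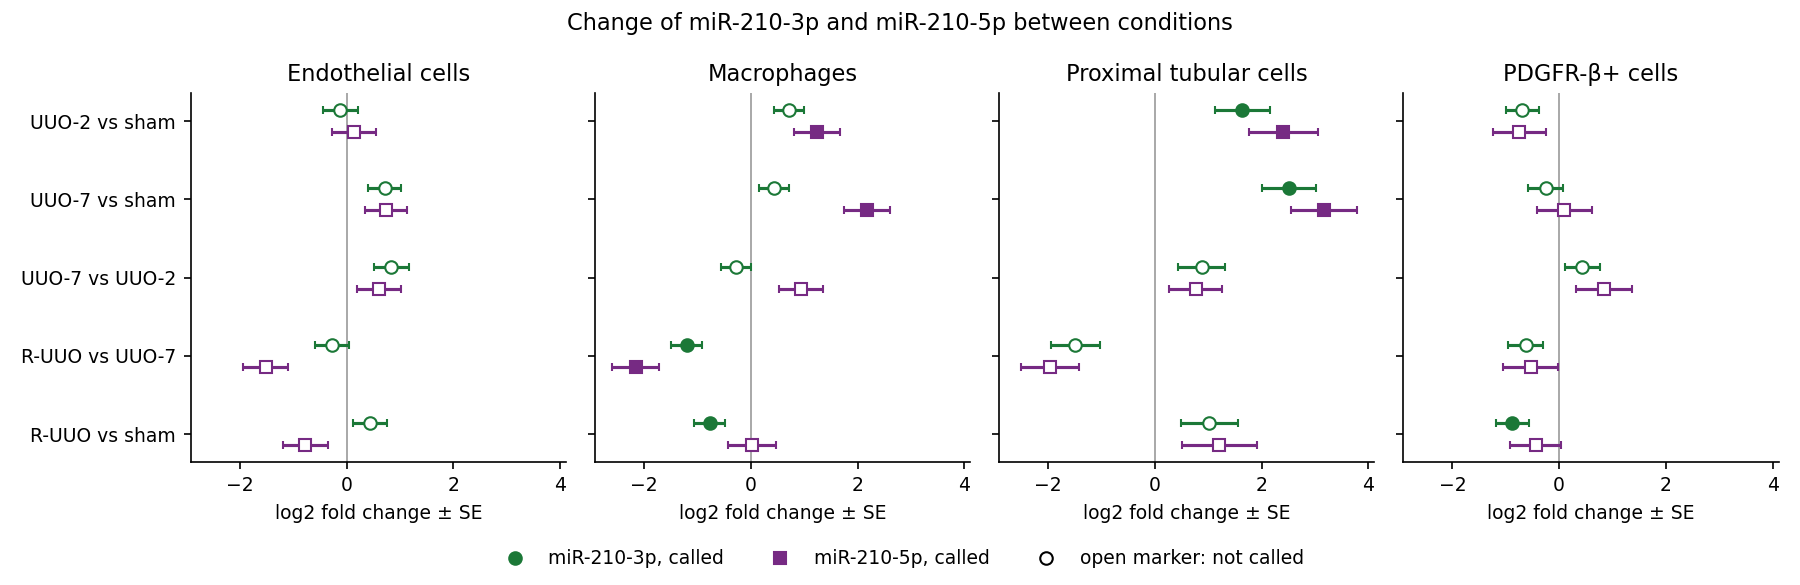
Log2 fold change (horizontal axis, bars are the SE derived from the F statistic) of miR-210-3p (circles) and miR-210-5p (squares) for 5 comparisons in each cell type, with filled markers for called changes. The 10 filled markers include all 4 changes of obstructed PT cells against sham, 5 changes of Macs and 1 of PDGFR-β+ cells, and none of ECs. Of all loci, 1.07% to 48.2% were called per comparison.

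Whether the response to 7 days of obstruction differed between cell types was tested directly, as the change from sham to UUO-7 in 1 type minus the mean change in the other 3. In PT cells this difference was 2.37 ± 0.45 on the log2 scale for miR-210-3p (edgeR adjusted p = 3.55e-05) and 2.36 ± 0.66 for miR-210-5p (edgeR adjusted p = 0.00461). Both were called, where 23.8% of 671 loci were. The value of the 3p strand stayed called in all 9 alternatives, from 1.67 to 2.58, whereas that of the 5p strand was lost with library size as the only scaling (1.68, edgeR adjusted p = 0.0588) and without replicate number 2 or 4, and was 4.28 without number 3. In PDGFR-β+ cells the difference was -1.37 ± 0.43 for miR-210-3p and -1.83 ± 0.59 for miR-210-5p (edgeR adjusted p = 0.0137 and 0.0160), where 22.8% of loci were called. These negative values are taken against a mean that includes the rise in PT cells. The call of miR-210-3p held in 4 of 9 alternatives and was also lost without the filter on low counts (-1.34) and without replicate number 3, 4 or 5 (-1.21, -1.35 and -1.39), and that of miR-210-5p held in 7 of 9 and was also lost without number 2 (-1.76, edgeR adjusted p = 0.112). Both calls were lost with library size as the only scaling (-0.85 and -1.35, edgeR adjusted p = 0.167 and 0.0923).

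The other differences of a change were not called. In Macs they were -0.70 ± 0.40 for miR-210-3p and 0.66 ± 0.55 for miR-210-5p (edgeR adjusted p = 0.249 and 0.475), where 20.1% of loci were called. In ECs they were -0.30 ± 0.42 and -1.19 ± 0.56 (edgeR adjusted p = 0.759 and 0.169), where 11.8% were called, and the latter was called without replicate number 3, at -2.17 (edgeR adjusted p = 0.00934). For the change from UUO-7 to R-UUO, 0 of the 8 differences of miR-210 were called by edgeR, with unadjusted p from 0.0251 to 0.972 (adjusted p from 0.224 to 1.00), and 0.149% to 0.894% of loci were called. Of these, 3 had an unadjusted p under 0.05: miR-210-5p in PDGFR-β+ cells (1.33 ± 0.58), miR-210-3p in PT cells (-0.86 ± 0.42) and miR-210-3p in ECs (0.84 ± 0.41). DESeq2 called 0 of the 6 for which it gave an adjusted p.

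For the level of miR-210 between cell types, libraries were scaled over all 63. Averaged over the libraries, miR-210-3p was highest in PDGFR-β+ cells at 34.4 ± 11.6 CPM (SD, n = 15), followed by Macs at 23.7 ± 9.70 (n = 16), PT cells at 21.2 ± 16.3 (n = 16) and ECs at 8.49 ± 3.27 (n = 16). miR-210-5p was at 12.8 ± 11.9 CPM in Macs, 10.3 ± 8.39 in PT cells, 9.34 ± 4.31 in PDGFR-β+ cells and 4.22 ± 2.18 in ECs. Averaged over the conditions, ECs were lower than each other type for both strands. In sham alone ECs were not below PT cells, at means of 7.44 against 6.89 CPM for miR-210-3p and 4.11 against 1.99 for miR-210-5p, with overlap. The log2 difference of miR-210-3p was -1.42 ± 0.18 from Macs, -1.07 ± 0.19 from PT cells and -2.02 ± 0.18 from PDGFR-β+ cells (edgeR adjusted p = 3.80e-10, 1.95e-06 and 2.03e-14). For miR-210-5p it was -1.44 ± 0.24, -0.93 ± 0.28 and -1.22 ± 0.25 (edgeR adjusted p = 3.86e-07, 0.00229 and 2.76e-05). Calls between cell types were frequent, at 64.7% of loci for ECs against Macs, 68.6% against PT cells and 40.2% against PDGFR-β+ cells.

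Among the other 3 types the order was less firm. miR-210-3p in PT cells was lower than in PDGFR-β+ cells by a log2 difference of -0.95 ± 0.19 (edgeR adjusted p = 1.09e-05), where 63.2% of loci were called, and this fell under the fold threshold with library size as the only scaling (-0.45). For Macs against PDGFR-β+ cells the difference of miR-210-3p was -0.59 ± 0.17 (edgeR adjusted p = 0.00207), where 68.7% of loci were called. It was called in 1 of 9 alternatives, being close to the fold threshold, and turned to 0.47 with library size as the only scaling. That scaling moved the median log2 difference of all loci between these types from -0.06 to 0.90, and between ECs and Macs from -0.03 to -1.30. Macs and PT cells were not called for either strand, at 0.36 ± 0.18 and 0.51 ± 0.26 (edgeR adjusted p = 0.0799 and 0.0746), where 62.3% of loci were called. With library size only both were called, at 0.92 and 1.08 (edgeR adjusted p = 4.07e-05 and 0.000353). The 5p strand in Macs and in PT cells differed from that in PDGFR-β+ cells by 0.22 ± 0.24 and -0.29 ± 0.27 (edgeR adjusted p = 0.414 and 0.344). Without replicate number 3 the latter was -0.64 and called (edgeR adjusted p = 0.0398), Macs exceeded PT cells in the 5p strand by 0.90 (edgeR adjusted p = 0.00371), and ECs were no longer called lower than PT cells in it, at -0.50 (edgeR adjusted p = 0.180). Without number 5 the difference of Macs from PT cells was 0.73 (edgeR adjusted p = 0.0297).

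Within a condition the order of the cell types depended on the scaling, and it is given first with TMM. The share of all loci whose cell types separate within a condition was not computed. Overlap between cell types, here and in the next paragraph, is therefore a description and does not show that miR-210 is unusual. In sham miR-210-3p averaged 46.0 CPM in PDGFR-β+ cells, 22.3 in Macs, 7.44 in ECs and 6.89 in PT cells. The PDGFR-β+ libraries lay above all Mac libraries, and these above all EC libraries, while ECs and PT cells overlapped. At UUO-2 the means were 32.4 CPM in Macs, 27.3 in PDGFR-β+ cells, 22.2 in PT cells and 5.96 in ECs, all with overlap between neighbours. At UUO-7 it averaged 42.0 CPM in PT cells, 40.0 in PDGFR-β+ cells, 27.6 in Macs and 11.3 in ECs, and neighbours in this order overlapped. In R-UUO the means were 25.7 CPM in PDGFR-β+ cells, 14.0 in PT cells, 12.3 in Macs and 9.20 in ECs, again with overlap between neighbours. For miR-210-5p the sham order was PDGFR-β+ cells at 11.2 CPM, Macs at 6.35, ECs at 4.11 and PT cells at 1.99, all with overlap between neighbours. At UUO-7 it was Macs at 25.5 CPM, PT cells at 21.6, PDGFR-β+ cells at 12.1 and ECs at 6.40, where Macs and PT cells overlapped and the other neighbours did not.

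With library size as the only scaling, an alternative added after seeing the data, the order differed. In sham miR-210-3p then averaged 33.7 CPM in Macs and 32.3 in PDGFR-β+ cells, which overlapped, and 9.94 in PT cells and 5.15 in ECs, which overlapped too. At UUO-7 it averaged 50.5 CPM in Macs, 43.2 in PT cells, 38.3 in PDGFR-β+ cells and 7.68 in ECs, which lay below the other types without overlap. miR-210-5p in sham then averaged 9.52 CPM in Macs, 8.11 in PDGFR-β+ cells, 2.84 in ECs and 2.72 in PT cells, and at UUO-7 its order was that found with TMM.

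**Figure D3:**
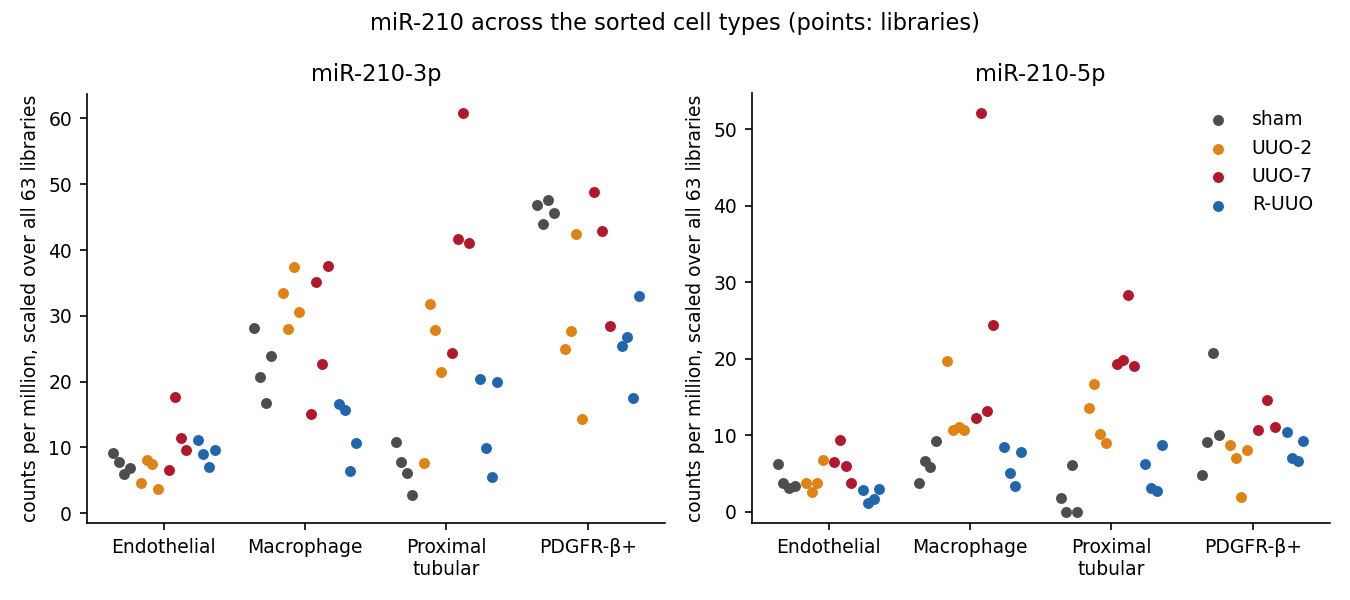
CPM of miR-210-3p (left) and miR-210-5p (right), scaled over all 63 libraries, with 1 point per library coloured by condition and grouped by sorted cell type. EC points stay low throughout, whereas PT points of miR-210-3p run from 2.81 CPM in sham to 60.9 at UUO-7.

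The balance of the strands does not depend on the scaling of libraries, since both are counted in the same library. The 5p strand took 29.1% of the miR-210 counts over all libraries, and it exceeded the 3p strand in 3 of 63 libraries and equalled it in 2. Its pooled share was 20.1% in PDGFR-β+ cells, against 31.4% in ECs, 32.5% in PT cells and 33.4% in Macs. The mean log2 ratio of 3p to 5p counts, with 0.5 added to each, was 1.93 ± 0.89 (SD, n = 15) in PDGFR-β+ cells, 1.29 ± 1.09 (n = 16) in PT cells, 1.11 ± 0.77 (n = 16) in Macs and 1.08 ± 0.88 (n = 16) in ECs. Of 6 pairs of cell types compared within mice, 1 passed after adjustment. In 15 mice the ratio in Macs was lower than in PDGFR-β+ cells by a mean log2 difference of -0.70, in 13 of 15 mice (2-sided exact sign-flip permutation test, p = 0.00232, adjusted p = 0.0139 over 6 pairs). Without replicate number 1, 2 or 5 this no longer passed, with values from -0.84 to -0.64. ECs against PDGFR-β+ cells gave -0.84 (exact permutation p = 0.0202, adjusted p = 0.0606) and passed with 1 added in place of 0.5 (-0.85, adjusted exact permutation p = 0.0337).

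Between conditions the shares of the strands separated without overlap in Macs at UUO-7, where miR-210-5p was called higher than in sham and miR-210-3p was not. The share of miR-210-5p in sham Macs was 11.9%, 24.2%, 25.7% and 27.8%. At UUO-7 it was 44.8%, 59.7%, 36.8% and 39.3%, above every sham library. The library with 59.7% (95% Wilson interval 55.5% to 63.8%) is UUO-7 replicate 3, with 319 counts of the 5p and 215 of the 3p strand. The mean log2 ratio was 1.84 ± 0.69 (SD, n = 4) in sham and 0.28 ± 0.60 (n = 4) at UUO-7, a difference of -1.56 (2-sided exact permutation p = 0.0286, the smallest this design allows, adjusted p = 0.171 over 12 tests). In R-UUO the Mac shares ranged from 24.3% to 42.4%.

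In ECs the shares separated after reversal, with less of the 5p strand. Their 5p share was 50.0%, 34.7%, 34.1% and 27.8% at UUO-7 and 20.5%, 10.9%, 18.8% and 23.4% in R-UUO, all below UUO-7, and the log2 ratio was higher by 1.33 (2-sided exact permutation p = 0.0286, adjusted p = 0.171). With 4 libraries against 4 or 3, no single test here can go below 0.0286. After adjustment 0 of the 12 tests passed, with 2 at an unadjusted p under 0.05. A test at this floor passes adjustment only if most of the 12 reach it. The outcome after adjustment therefore cannot decide whether the balance changed. In PT cells the balance in sham was poorly measured, as each of the 4 sham libraries held fewer than 20 counts over both strands. The UUO-7 shares of PT cells were 31.6% to 44.2%, and their log2 ratio differed from sham by -1.36 (exact permutation p = 0.143, adjusted p = 0.4).

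**Figure D4:**
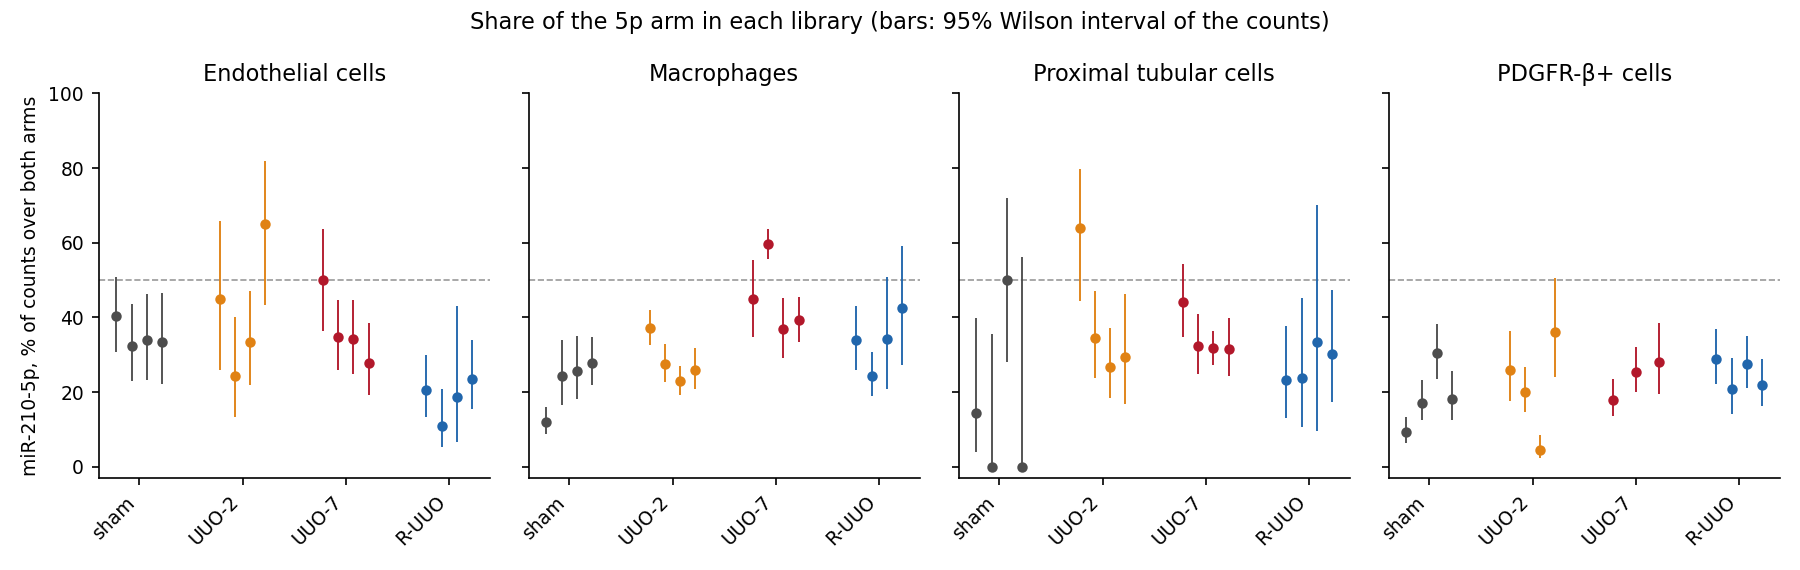
Share of miR-210-5p among the counts of both strands (vertical axis, %) in each library by cell type and condition, with 95% Wilson intervals and a dashed line at equal counts. The 4 Mac libraries of UUO-7 sit above the 4 of sham, the EC libraries of R-UUO sit below those of UUO-7, and the intervals of sham PT libraries are wide.

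A list of 16 other miRNAs linked to low oxygen in cultured cells, among them the miR-23, miR-27, miR-26, miR-103/107 and miR-181 families, miR-21a-5p and miR-155-5p, was read beside miR-210. All 16 could be tested in every cell type. Several share a family, so counts and medians over the list are not over independent miRNAs. In PT cells at UUO-7 against sham 9 were higher and 2 lower, with a median log2 fold change of 0.84 against 0.00 for all loci, of which 25.5% were higher and 17.6% lower. The largest were miR-181c-5p at 2.42, miR-23a-3p at 2.04 and miR-155-5p at 1.94 (edgeR adjusted p = 0.000286, 0.000373 and 0.000374), beside 2.51 for miR-210-3p and 3.17 for miR-210-5p. In Macs 5 were higher and 4 lower, with a median of -0.10 against 0.22 for all loci, of which 26.3% were higher and 16.8% lower. The largest there were miR-199a-5p at 1.65, miR-155-5p at 1.29 and miR-181b-5p at 1.20 (edgeR adjusted p = 0.000112, 0.00133 and 2.78e-07).

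In ECs 4 of the 16 were higher and 1 lower at UUO-7, with a median of -0.17 against -0.05, where 6.18% of all loci were higher and 5.33% lower. In PDGFR-β+ cells 5 were higher and 9 lower, with a median of -0.69 against 0.50, where 34% of all loci were higher and 14.3% lower. miR-21a-5p, a miRNA known for its rise in injured and fibrotic kidney, had the largest change in ECs at 2.41 (edgeR adjusted p = 2.95e-07), followed by miR-155-5p, a miRNA of inflammatory cells, at 2.13 (edgeR adjusted p = 0.000338). In PDGFR-β+ cells the order was miR-155-5p at 5.63, miR-21a-5p at 4.97 and miR-199a-5p at 2.39 (edgeR adjusted p = 6.63e-07, 5.91e-10 and 2.18e-09), while neither strand of miR-210 was called. From UUO-7 to R-UUO, where miR-210 was lower in Macs, 3 of the 16 were higher in Macs and 0 lower, where 12.7% of all loci were higher and 7.22% lower, among them miR-199a-5p at 1.84 and miR-181c-5p at 0.86 (edgeR adjusted p = 0.000256 and 0.00534).

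The loci with the pattern most like that of miR-210-3p were ranked by Pearson's r of log2 CPM, as a description. Over the 16 group means of cell type and condition, which share the libraries' scaling, they were miR-467d-5p (r = 0.859), miR-210-5p (0.805), miR-330-5p (0.778), miR-466a-3p (0.685) and miR-467c-5p (0.675), against a median of 0.02 over 670 loci. The other strand of the same hairpin was thus second. Over the 16 Mac libraries alone they were miR-106b-3p (r = 0.914), miR-25-3p (0.886), miR-130b-5p (0.820), miR-18a-3p (0.819) and miR-324-3p (0.796), while miR-210-5p was at rank 15 of 456 with r = 0.671.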

How the data were processed

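Small RNA was sequenced from 4 populations sorted from each of 16 mice, giving 63 libraries. The authors trimmed paired-end reads with Trim Galore 0.4.1 and Cutadapt 1.1, aligned them with ShortStack, which runs Bowtie, to GRCm38 and miRBase, and deposited raw counts for each mature miRNA locus in each library, neither normalized nor pooled. The strand counted and the placing of multi-mapping reads are not given in the sources used here. A column of totals that belongs to no library was not used.

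Groups come from the labels. The labels name no mouse, and libraries with the same condition and number were taken as 1 mouse. miR-210 and the lists beside it were chosen with earlier results of these data known. Named beside miR-210 were a list of 16 miRNAs linked to hypoxia (at most 3 values per comparison, the largest among called changes), the 5 loci with the highest r over group means and over Mac libraries, loci sharing a seed, and the nearest loci within 1 Mb.

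The counts went through edgeR 4.0.16 under R 4.3.3 (filterByExpr, TMM, quasi-likelihood test in 1 fit per cell type, or in 1 fit of all 63 libraries in 16 groups for cell types and differences of a change, Benjamini-Hochberg adjustment over all loci tested) and DESeq2 1.42.0 as an alternative. Log2 CPM used a prior count of 2. Strand ratios were compared by exact permutation tests in Python 3.11.15, and strands were paired with RNAduplex of ViennaRNA 2.7.2. The tests were also run on simulated data, and no result here rests on them. The simulated counts had the same spread for all loci. It was smaller than the common spread estimated in PDGFR-β+ cells, in PT cells and over all libraries. Totals of 616565 to 10819385 counts per library limit PT cells most.

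Within a condition a replicate number was taken to mark 1 mouse for all cell types, and the comparisons within mice rest on this. Deviations from group means of libraries of the same mouse correlated with a median r of 0.05 over 93 pairs, against -0.02 for different mice. The fit with the mouse as a block changed no call among the 28 levels and differences of a change compared between cell types. Across conditions a number is shared by different mice. The alternatives were DESeq2, library size only, no filter, only the compared groups, a block, another pseudocount, a minimum of 20 counts, and leaving out each library or number in turn.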

Additional observations from a re-analysis of the deposited data

Results flagged for a closer look

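Of 45 groups of 4 libraries or more that were examined for a value far from the rest, 3 held one, and chance gives about 1 in 20. In Macs at UUO-2, miR-210-5p measured 33.3 CPM in replicate 1, while the other 3 libraries measured 19.2 to 20.1. In PT cells at UUO-7, miR-210-5p measured 31.7 CPM in replicate 4, the deepest of the 4 libraries, and 20.6 to 22.4 in the others. The log2 ratio of 3p to 5p counts in PT cells at UUO-7 was 0.33 in replicate 2, lower than in the other 3.

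The change from sham to UUO-7 differed between cell types in 4 tests of the difference itself. On the log2 scale the change in PT cells minus the mean change in the other cell types was 2.37 for miR-210-3p and 2.36 for miR-210-5p, and that in PDGFR-β+ cells was -1.37 for miR-210-3p and -1.83 for miR-210-5p (edgeR adjusted p = 3.55e-05, 0.00461, 0.0137 and 0.0160). These 4 contrasts share their libraries, and the mean of the other types contains the PT change in the latter pair.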

How the results depend on the processing

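All values are log2 differences, and adjusted p are edgeR's unless DESeq2 is named. The rise of both strands in PT cells at UUO-7, that of miR-210-5p in PT cells at UUO-2 and in Macs at UUO-7, the fall of both strands in Macs from UUO-7 to R-UUO, and the lower level of both strands in ECs than in Macs and PDGFR-β+ cells and of miR-210-3p in ECs than in PT cells kept their calls in every alternative that was run. For miR-210-5p in PT cells at UUO-2 the fit of only the compared groups gave no value, as the strand did not pass the filter there. The levels between cell types are averages over the conditions. Depth limits the PT sham libraries, with 3 to 12 counts of miR-210-3p and 0 to 8 of miR-210-5p, and both strands passed the filter there only with libraries of other conditions.

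With DESeq2, R-UUO against UUO-7 became called for miR-210-5p in ECs (-1.58) and in PT cells (-1.97) and for miR-210-3p in PT cells (-1.48), as did miR-210-3p at UUO-2 in PDGFR-β+ cells (-0.79) and miR-210-5p of Macs against PT cells (0.59), while miR-210-3p of Macs against PDGFR-β+ cells was lost (-0.41). Uncalled values turned sign for miR-210-5p of R-UUO against sham in Macs (-0.056) and UUO-7 against sham in PDGFR-β+ cells (-0.15). DESeq2 gave no adjusted p for 4 results.

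With library size only, the calls of miR-210-3p were lost at UUO-2 in PT cells (1.44), in R-UUO against sham in PDGFR-β+ cells (-0.59), for PT against PDGFR-β+ cells (-0.45) and for the difference of the UUO-7 change in PDGFR-β+ cells (-0.85), and those of miR-210-5p for the difference in PT cells (1.68) and PDGFR-β+ cells (-1.35). miR-210-3p of Macs against PDGFR-β+ cells reversed (0.47). New calls were miR-210-5p of R-UUO against UUO-7 in ECs (-1.67), miR-210-3p at UUO-2 in Macs (0.87), UUO-7 against UUO-2 in PDGFR-β+ cells (0.95 for miR-210-3p, 1.40 for miR-210-5p), Macs against PT cells (0.92 and 1.08) and miR-210-5p of Macs against PDGFR-β+ cells (1.28). Uncalled values turned sign for miR-210-5p of R-UUO against sham in Macs (-0.087), miR-210-3p at UUO-7 in PDGFR-β+ cells (0.25) and miR-210-5p of PT against PDGFR-β+ cells (0.20).

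With no filter on low counts, R-UUO against UUO-7 was called in ECs for miR-210-5p (-1.54) and in PT cells for both strands (-1.5 for miR-210-3p and -1.98 for miR-210-5p), as was miR-210-5p of UUO-7 against UUO-2 in Macs (0.92). The calls of miR-210-3p were lost in R-UUO against sham in PDGFR-β+ cells (-0.88), for Macs against PDGFR-β+ cells (-0.57) and for the difference in PDGFR-β+ cells (-1.34), and the uncalled miR-210-5p of R-UUO against sham in Macs turned (-0.18). In fits of only the compared groups miR-210-3p at UUO-2 in Macs was called (0.68), that in R-UUO against sham in Macs was lost (-0.80), and miR-210-5p there turned (-0.013). With the replicate block across conditions, where a number does not mark a mouse, 4 calls were lost: miR-210-5p at UUO-2 in Macs (1.19) and miR-210-3p in R-UUO against sham in Macs (-0.78), at UUO-2 in PT cells (1.69) and in R-UUO against sham in PDGFR-β+ cells (-0.82). Numbers across conditions had a median r of -0.02 over 74 pairs. The paired fit with the mouse as a block changed no call between cell types, and the cause of these losses was not tested.

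For the strand ratio, a pseudocount of 1 made ECs (-0.85) and PT cells (-0.75) differ from PDGFR-β+ cells, and with only libraries of at least 20 counts ECs differed from PDGFR-β+ cells (-0.94) and the uncalled ECs against PT cells turned (0.087).

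Leaving out 1 library at a time, the ranges were, for UUO-2 against sham, -0.27 to 0.090 (miR-210-3p) and -0.069 to 0.47 (miR-210-5p) in ECs, 0.84 to 1.32 (miR-210-5p) in Macs, 1.39 to 1.97 (miR-210-3p) in PT cells and -1.0 to -0.47 (miR-210-3p) in PDGFR-β+ cells. For R-UUO against UUO-7 they were -0.46 to 0.032 (miR-210-3p) and -1.77 to -1.26 (miR-210-5p) in ECs and -2.26 to -1.77 (miR-210-5p) in PT cells. For R-UUO against sham they were -1.07 to -0.68 (miR-210-3p) and -0.35 to 0.13 (miR-210-5p) in Macs, 0.78 to 2.84 (miR-210-5p, called without sham replicate 3) in PT cells and -1.06 to -0.77 (miR-210-3p) in PDGFR-β+ cells. For miR-210-5p, UUO-7 against UUO-2 in Macs gave 0.24 to 1.19 and UUO-7 against sham in PDGFR-β+ cells -0.21 to 0.50.

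Leaving out 1 replicate number in all groups, levels ranged from -1.13 to -0.50 for miR-210-5p of ECs against PT cells (lost without number 3), 0.46 to 0.90 for Macs against PT cells and -0.64 to -0.10 for PT against PDGFR-β+ cells, and from -0.55 to -0.34 for miR-210-3p of Macs against PDGFR-β+ cells. The differences of the UUO-7 change ranged, for miR-210-5p, from 1.62 to 4.28 in PT cells, -2.12 to -1.67 in PDGFR-β+ cells, -2.17 to -0.65 in ECs and -0.44 to 1.46 in Macs, and for miR-210-3p from -1.75 to -1.21 in PDGFR-β+ cells. Those of the R-UUO change ranged from -0.13 to 0.39 for miR-210-5p in ECs and -0.80 to 0.21 for miR-210-3p in Macs. The strand ratio ranged from -0.19 to 0.092 for ECs against Macs and -0.84 to -0.64 for Macs against PDGFR-β+ cells. At UUO-2 against sham it ranged from -0.74 to 0.046 in Macs, -1.13 to 0.52 in PDGFR-β+ cells and -0.69 to 0.10 in ECs, at UUO-7 against sham from -0.27 to 0.24 in ECs, and for R-UUO against UUO-7 from -0.33 to 0.060 in PDGFR-β+ cells.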

Other observations

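At UUO-2 against sham, the list of 16 hypoxia-linked miRNAs held called members in all 4 cell types. In PT cells 7 were higher and 1 lower, with a median log2 fold change of 0.52 against 0.02 for all loci, of which 14.8% were higher and 4.24% lower. The largest there were miR-322-5p at 2.16, miR-23a-3p at 1.71 and miR-21a-5p at 1.68 (edgeR adjusted p = 0.0333, 0.00455 and 0.00455), beside 1.64 for miR-210-3p and 2.40 for miR-210-5p. In Macs 3 were higher and 2 lower, where 18.4% of all loci were higher and 9.19% lower. In PDGFR-β+ cells 3 were higher and 0 lower, where 5.66% of all loci were higher and 0.629% lower, and in ECs 2 were higher and 0 lower, where 1.49% were higher and 0.213% lower. In R-UUO against sham 8 of the 16 were higher and 3 lower in PT cells, where miR-210 was not called, while 25.8% of all loci were higher and 13.0% lower. The largest were miR-322-5p at 3.59, miR-181c-5p at 3.15 and miR-23a-3p at 2.47 (edgeR adjusted p = 0.00109, 4.73e-05 and 0.000104). These comparisons share their sham libraries.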
